A study of Mus musculus with 6 samples.

Results

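The genes of protein processing in the endoplasmic reticulum (ER) were followed in cultured mouse muscle satellite cells (SCs), the stem cells of skeletal muscle. Members were the genes that the deposited expression table assigns to the KEGG pathway of that name, and 163 rows carried it. *Cryab*, *Bax* and the *Mapk* genes of the pathway, 5 rows together, were left out by the rule, so that 158 of the 55416 listed genes were members. They cover ER chaperones, glycosylation, export, the unfolded protein response (UPR) and ER-associated degradation (ERAD), and the cytosolic chaperones and ubiquitin factors that work with them.

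SCs came from WT mice and from *Ltf*-KO mice, in which coding exons of the lactoferrin gene were deleted with CRISPR-Cas9 in C57/BL6N zygotes. Mice were young adults unless the methods state otherwise. The cells were sorted from muscle as negative for Sca1 and CD11b and positive for CD34 and α7-integrin, and then grown on Matrigel for 4 days in growth medium without further treatment. RNA was sequenced from 3 libraries of each genotype, and the comparison of *Ltf*-KO with WT asks which transcripts differ in SCs that lack *Ltf*. The deletion is systemic, so these cells lacked *Ltf* before they were sorted, and the libraries describe expanding cultures and not SCs at rest in muscle. Nothing in the sources used here states whether the libraries of a genotype came from separate mice or cultures, so the p-values measure the spread between these samples, which may be technical.

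Proteins bound for the cell surface, for secretion or for the membranes enter the ER through the Sec61 channel, receive sugar chains and disulfide bonds, fold with the help of chaperones and leave in COPII vesicles. Proteins that fail to fold are pulled back to the cytosol, tagged with ubiquitin and degraded. When unfolded protein builds up, the sensors IRE1, PERK and ATF6 raise chaperone and ERAD genes and slow translation, and in muscle stem cells the PERK branch is known to be needed for survival during differentiation.

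The deposited values are in TPM, which corrects for gene length and brings every library to 1 total, so levels can be compared between genes but the depth behind them is unknown. The knockout target, *Ltf* (ENSMUSG00000032496), had 0.12, 0.02 and 0.02 TPM in WT and 0.02, 0.03 and 0 TPM in *Ltf*-KO. A listed 0 is a value too small for its decimals and need not mean absence. *Ltf* lay near the floor in both genotypes and cannot check the labels. The markers of SCs and myoblasts were present in every library. *Pax7*, the transcription factor that marks SCs, was at 42.4, 41.5 and 39.1 TPM in WT and 39.0, 43.3 and 36.6 TPM in *Ltf*-KO, and *Myod1*, which marks activated cells, was at 816, 748 and 771 TPM in WT and 775, 812 and 753 TPM in *Ltf*-KO. All 10 markers of this list were tested and 0 had an unadjusted p under 0.05, beside 3.78% of all tested genes.

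Markers of differentiating myocytes were also high and differed between libraries of the same genotype. Summed over the 10 genes of that list, which *Mylpf* led, they came to 2878, 3677 and 2675 TPM in WT and 3137, 2660.0 and 4315 TPM in *Ltf*-KO. *Myog*, the factor that starts differentiation, was at 319, 410.3 and 293 TPM in WT and 360.4, 266 and 508 TPM in *Ltf*-KO, highest in *Ltf*-KO replicate 3. All 10 genes had a positive log2 fold change, beside 55.7% of all tested genes, with a median of 0.14. An unadjusted p under 0.05 was seen for 0 of them, beside 3.78% of all tested genes. The sum of *Ltf*-KO replicate 1 lay within the WT range and that of replicate 2 below it. The higher mean sum in *Ltf*-KO thus came from replicate 3. Macrophage and neutrophil markers were low, with *Ptprc* and *Adgre1* at no more than 0.16 and 0.08 TPM and *Elane* at 0 in 5 of the 6 libraries. The 5 neutrophil markers, led by *S100a9*, summed to 2.81, 0.95 and 3.17 TPM in WT and 0.95, 3.30 and 1.75 TPM in *Ltf*-KO. The 7 macrophage markers summed to 11.6, 6.01 and 4.46 TPM in WT and 4.74, 4.69 and 3.66 TPM in *Ltf*-KO, and most of the sum in WT replicate 1 was *Lyz2* at 7.22 TPM. The 8 fibroblast markers summed to 104, 109.8 and 105 TPM in WT and 138, 117 and 105 TPM in *Ltf*-KO, of which *Col3a1* made up most, while *Dpt* and *Lum* stayed under 0.4 TPM. Each of the 6 fibroblast markers that could be tested had a positive log2 fold change, beside 55.7% of all tested genes. Of the 6, 1 had an unadjusted p under 0.05, beside 3.78% of all tested genes. This was *Mfap5*, at 1.24, 1.53 and 2.24 TPM in WT and 3.78, 3.24 and 2.66 TPM in *Ltf*-KO. The 6 endothelial markers summed to between 6.42 and 14.2 TPM and the 4 Schwann cell markers to between 11.7 and 21.8 TPM. The part of other cells and of differentiation in the values of the pathway was not tested. In bulk samples, fewer cells of a type and less RNA per cell cannot be told apart.

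Of the 158 members, 148 averaged 1 TPM or more and were tested, 6 were listed at 0 in every library, and the other 4 lay below 1 TPM. No member differed between *Ltf*-KO and WT at an adjusted p under 0.05 by limma, and neither did any of the 12956 tested genes (0 calls, 0.0% of tested genes). Single libraries moved the count over all tested genes, to 6 without WT replicate 2, 1 without WT replicate 3, and 5, 2 and 4 without *Ltf*-KO replicates 1, 2 and 3, and none of these was a member. At an unadjusted p under 0.05 there were 6 members (4.05% of 148), beside 490 of all tested genes (3.78%). Of the 6, 3 were higher and 3 lower in *Ltf*-KO (2.03% each), beside 2.01% and 1.78% of all tested genes. The balance over all tested genes turned with the scaling, since 305 of 508 were lower in *Ltf*-KO with quantile normalization and 280.0 of 502 with median-of-ratios scaling, beside 230.0 of 490.0. The members thus passed this threshold about as often as the rest of the table. The count of 6 rested on single libraries, since 3 members passed without *Ltf*-KO replicate 1, of which only *Dnajc1* was among the 6, and 3 without *Ltf*-KO replicate 2, all among the 6. Over the alternatives *Man1a2* passed in 10 of 13, *Mbtps2* and *Sec61g* in 7 of 13, *Rpn1* in 4 of 13 and *Atxn3* in 4 of the 12 that tested it. The 3 *Ltf*-KO libraries all lay above the 3 WT libraries for 10 of the 148 members (6.76%), beside 4.73% of all tested genes, and all below them for 5 (3.38%), beside 3.73%.

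**Figure D1:**
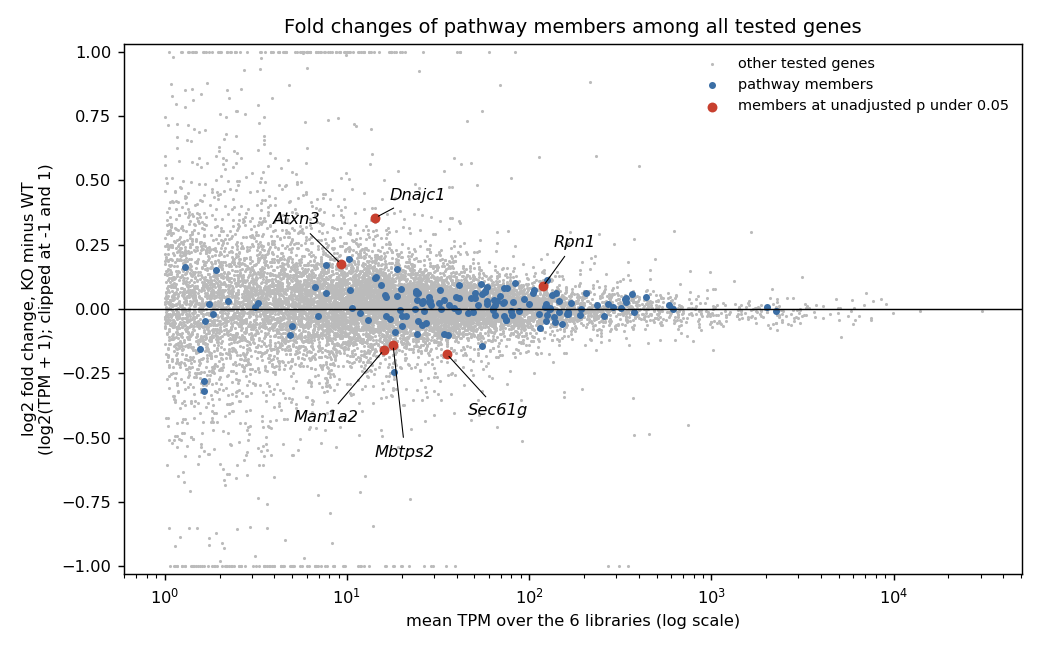
Each point is a tested gene, with its mean TPM over the 6 libraries on a log axis and its log2 fold change (*Ltf*-KO minus WT, log2(TPM + 1)) on the vertical axis, clipped at -1 and 1. The members (blue) lie between -0.32 and 0.35, and the 6 members at an unadjusted p under 0.05 (red) are named.

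The median log2 fold change of the 148 members was 0.017, beside 0.011 over all tested genes. With median-of-ratios scaling these medians were 0.0066 and 0.0013, and with quantile normalization 0.011 and -0.0020. On the values as deposited 91 members (61.5%) lay above 0, beside 55.7% of all tested genes. These fold changes, like all given here, are on the log2(TPM + 1) scale, which understates the change of genes at low TPM. For 143 of the 148 members (96.6%) the 95% interval stayed within 1.5-fold in either direction on that scale, beside 84.5% of all tested genes. For members at a few TPM this does not exclude a change of that size in TPM itself. The median distance from the estimate to the edge of the interval was 0.13 for members and 0.21 for all tested genes. Members were also more abundant, with a median of 49.8 TPM beside 16.0 TPM. The coefficient of variation within WT had a median of 12.1% for the 18 members from 1 to 10 TPM, beside 14.1% for all tested genes of that level. It was 4.53% beside 5.58% from 10 to 100 TPM (88 members) and 2.79% beside 3.42% at 100 TPM or more (42 members). Within *Ltf*-KO the medians at these levels, from low to high, were 13.6% beside 14.1%, 4.46% beside 5.85% and 3.38% beside 3.55%.

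The summed level of all 158 members was 16434, 16425 and 16655 TPM in WT and 16507, 16872 and 16486 TPM in *Ltf*-KO. Their share of all transcripts was therefore 1.66% ± 0.014 in WT and 1.67% ± 0.021 in *Ltf*-KO (SD, n = 3), and the genotypes overlapped. The difference of the mean sums, 117 TPM, turned to -8.45 TPM without *Ltf*-KO replicate 2. Levels ranged widely between members. There were 42 members at 100 TPM or more, 88 from 10 to 100 and 18 from 1 to 10 TPM. The most abundant 2 members made up 26.0% of the sum, the most abundant 10 made up 46.5% and the most abundant 20 made up 60.4%.

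**Figure D2:**
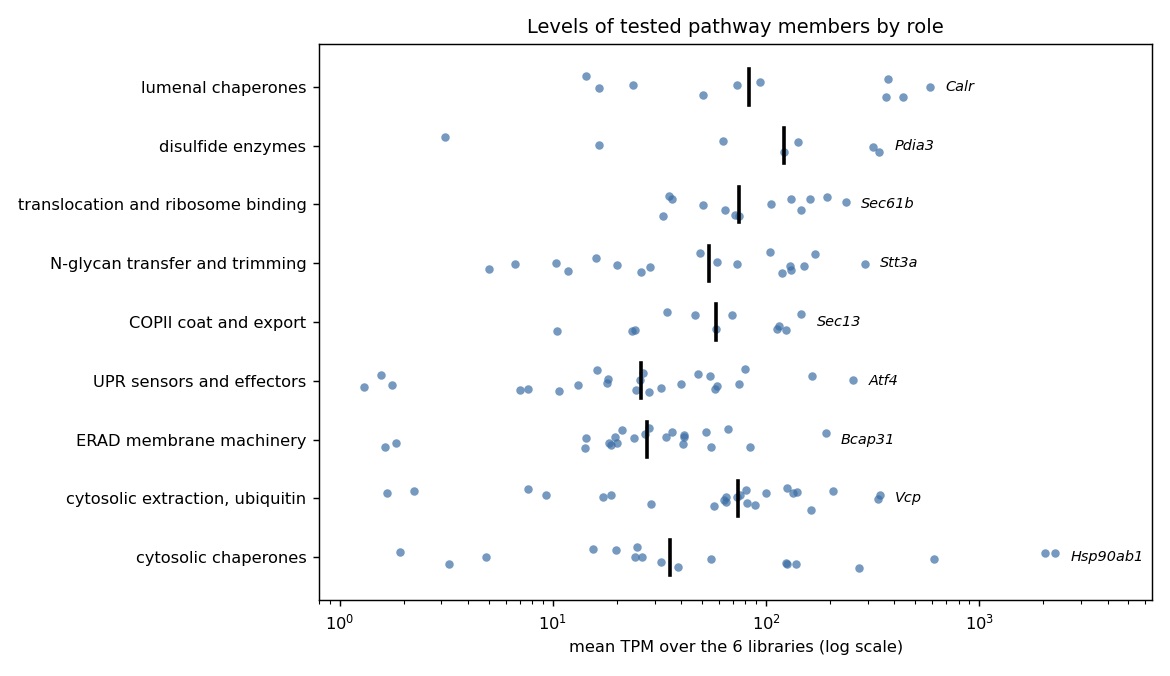
Each point is a tested member, placed by its mean TPM over the 6 libraries (log axis) in the row of its role, and the black bar is the median of the role. The most abundant member of each role is named, from *Sec13* at 146 TPM to *Hsp90ab1* at 2275 TPM.

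The lumenal chaperones hold nascent proteins in a state that can still fold. *Calr*, a calcium-binding chaperone that recognises a single glucose on the sugar chain, was the most abundant of the 10, at 578, 589.8 and 579.8 TPM in WT and 585, 622 and 561 TPM in *Ltf*-KO. *Hsp90b1*, the ER form of HSP90, was at 432, 429.7 and 436 TPM in WT and 454, 452 and 434 TPM in *Ltf*-KO. *Hspa5*, which encodes BiP, the HSP70 of the ER and the chaperone that holds the UPR sensors inactive, was at 355, 368 and 354 TPM in WT and 365, 388 and 370.0 TPM in *Ltf*-KO. For all 3 genes *Ltf*-KO replicate 1 or 2 was highest and the genotypes overlapped. *Canx*, the membrane-bound partner of calreticulin, was at 368, 370.1 and 391 TPM in WT and 362, 374 and 383 TPM in *Ltf*-KO, also with overlap. The cofactors were less abundant. *Dnajb11* and *Dnajc3*, J proteins that bring substrates to BiP, were at 89.4 to 96.8 TPM and 23.0 to 24.9 TPM, and *Hyou1*, which exchanges its nucleotide, was at 69.6 to 77.8 TPM. *Hsp90b1* was between 5.78 and 6.30 times as abundant as *Hyou1* in the 6 libraries.

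The log2 fold change was 0.060 for *Hspa5* (95% interval -0.026 to 0.15), 0.046 for *Hsp90b1* (-0.025 to 0.12) and 0.016 for *Calr* (-0.084 to 0.12). None passed the test. Without *Ltf*-KO replicate 2 the value of *Hspa5* was 0.033 and the sign of *Calr* turned. The median of the 10 lumenal chaperones was 0.043. It stayed positive without each library in turn, between 0.030 and 0.059. Of the 10 genes, 8 were above 0 (80.0%, beside 55.7% of all tested genes). Of the 10, 1 (*Dnajc1*) had an unadjusted p under 0.05, beside 3.78% of all tested genes. Whether these shares differ was not tested.

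Several of these chaperones share a sequence before their start. It is a known element of ER stress genes, so its share among members is only a description. The ER stress response element (ERSE), which ATF6 and XBP1 bind together with the general factor NF-Y, was searched as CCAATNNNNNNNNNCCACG on both strands in RefSeq windows of 300 bases, from 250 before to 50 after each gene's start, on GRCm38.p6. It was found at 8 of the 133 members that had a window (6.02%), beside 37 of 27025 genes (0.137%). Lumenal chaperones held 5 of the 8, out of 8 with a window, the ERAD membrane machinery held 2 of 18 and the disulfide enzymes 1 of 6. None of the windows of the other roles held it. The matches are shown because the 4 most abundant lumenal chaperones, *Calr*, *Hsp90b1*, *Canx* and *Hspa5*, all hold the element. Each is given on the strand that reads CCAAT first, with 8 bases on either side, and capitals mark the element.
Hspa5 (chr2:34772017-34772051, plus strand): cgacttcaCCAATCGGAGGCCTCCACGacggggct
Hsp90b1 far match (chr10:86705630-86705664, minus strand): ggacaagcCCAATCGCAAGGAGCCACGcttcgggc
Hsp90b1 near match (chr10:86705525-86705559, plus strand): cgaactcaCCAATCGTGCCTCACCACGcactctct
Calr (chr8:84847067-84847101, plus strand): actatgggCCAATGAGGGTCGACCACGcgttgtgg
Canx (chr11:50325792-50325826, minus strand): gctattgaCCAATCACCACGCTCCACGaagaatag
Dnajc3 (chr14:118937819-118937853, plus strand): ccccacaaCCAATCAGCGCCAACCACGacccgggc
Syvn1 (chr19:6046524-6046558, plus strand): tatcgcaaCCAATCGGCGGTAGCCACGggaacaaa
Derl3 (chr10:75893234-75893268, minus strand): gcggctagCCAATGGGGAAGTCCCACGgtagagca
Ero1b (chr13:12565674-12565708, minus strand): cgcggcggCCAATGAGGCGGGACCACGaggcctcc

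The outer letters are fixed by the search, and the 9 bases between them differ from gene to gene. *Hsp90b1* held a pair of matches, on opposite strands. In *Hspa5* the element begins 65 bases before the start. The 250 bases before its start are given in full, since *Hspa5* is the usual readout of the UPR, with the element in capitals. The stretch holds CCAAT, on either strand, 4 times.
Hspa5 (chr2:34771840-34772089, plus strand): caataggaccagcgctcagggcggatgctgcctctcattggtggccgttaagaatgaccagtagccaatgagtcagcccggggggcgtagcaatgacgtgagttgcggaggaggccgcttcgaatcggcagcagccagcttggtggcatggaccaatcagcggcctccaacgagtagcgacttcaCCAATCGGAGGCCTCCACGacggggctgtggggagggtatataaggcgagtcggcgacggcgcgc

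A match is a description of letters and does not show that a factor binds there. The 8 genes with a match ranged in level from *Derl3* at a mean of 1.64 TPM to *Calr* at 586 TPM, with a median of 198 TPM. Their log2 fold changes had a median of 0.031 and 6 of the 8 were above 0, beside a median of 0.022 with 74 of 117 above 0 for tested members with a window and no match. None of the 8 had an unadjusted p under 0.05, beside 5 of the 117. The shorter UPR element TGACGTGG was found at 5 members (3.76%), beside 0.714% of all genes, namely *Sec23a*, *Sec24d*, *Txndc5*, *Ube2j1* and *Vcp*. A form of the heat shock element, GAA and TTC and GAA with any 2 bases between neighbours, was at 3 members (2.26%, beside 0.662%) and the amino acid response element TGATGNAAT, which ATF4 binds, at 1 (0.752%, beside 1.08%). None of these patterns contains another.

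The disulfide enzymes oxidise and reshuffle cysteine pairs. *Pdia3*, which works on glycoproteins held by calnexin and calreticulin, was at 337, 334 and 341 TPM in WT and 354, 350.2 and 326 TPM in *Ltf*-KO, and *P4hb*, the classic protein disulfide isomerase and a subunit of collagen prolyl hydroxylase, was at 332, 308 and 316 TPM in WT and 324, 332 and 303 TPM in *Ltf*-KO. Both overlapped between genotypes, with *Ltf*-KO replicate 3 lowest. *Pdia4* was at 137, 139 and 136 TPM in WT and 142, 148 and 140.2 TPM in *Ltf*-KO, so that all *Ltf*-KO libraries lay above all WT libraries, with a log2 fold change of 0.061 (-0.022 to 0.14) that did not pass the test and was 0.040 without *Ltf*-KO replicate 2. *Pdia6*, which the table does not place in the pathway, was at 270.5 to 283 TPM. The oxidases that recharge these enzymes were much lower. *Ero1a*, named after its values were seen, was at 13.3, 15.6 and 19.4 TPM in WT and 21.2, 15.1 and 14.0 TPM in *Ltf*-KO, and *Ero1b* lay between 2.60 and 3.93 TPM. The highest library was 1.59 times the lowest for *Ero1a* and 1.51 times for *Ero1b*. The 7 members of this role had a median log2 fold change of 0.0075. An unadjusted p under 0.05 was seen for 0 of them, beside 3.78% of all tested genes. Leaving out *Ltf*-KO replicate 3 moved the median to 0.063, and leaving out WT replicate 2 moved it to -0.012.

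Entry into the ER was represented by 13 members with a median level of 75.0 TPM. *Sec61b*, a small subunit of the channel, was at 249.7, 215 and 241 TPM in WT and 247, 253 and 216 TPM in *Ltf*-KO, and *Ssr3*, a subunit of the TRAP complex beside it, was at 191, 194 and 194 TPM in WT and 198, 191 and 189 TPM in *Ltf*-KO. *Sec61b* was lowest in WT replicate 2 and *Ltf*-KO replicate 3, so its spread lay within genotypes, while *Ssr3* varied by little. *Sec61g* (ENSMUSG00000078974), the other small channel subunit, was at 38.6, 34.9 and 38.7 TPM in WT and 31.0, 33.0 and 35.1 TPM in *Ltf*-KO. Only WT replicate 2 fell within the range of the *Ltf*-KO libraries. Its log2 fold change was -0.17 (-0.33 to -0.015), with an unadjusted p of 0.0359 and an adjusted p of 0.999 by limma. The pore-forming subunit was split between *Sec61a1* and *Sec61a2*, named after their values were seen, with *Sec61a1* between 3.25 and 3.91 times as abundant in every library. The median log2 fold change of the role was 0.0059. It was -0.0045 with median-of-ratios scaling and ranged from -0.014 to 0.022 with 1 library left out.

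N-linked glycosylation adds a sugar tree to asparagine, and glucosidases and mannosidases then trim it as the protein folds. The oligosaccharyltransferase supplied the most abundant genes of the 18. *Stt3a*, a catalytic subunit, was at 257, 241 and 379.8 TPM in WT and 276, 309 and 279 TPM in *Ltf*-KO. WT replicate 3 stood well above the other 5 libraries, and without it *Stt3a* passed the unadjusted threshold. *Rpn2*, a structural subunit, was at 173, 168 and 164 TPM in WT and 167, 178 and 168 TPM in *Ltf*-KO, with overlap. Its partner *Rpn1* (ENSMUSG00000030062) was at 116, 112 and 118 TPM in WT and 122, 124 and 121 TPM in *Ltf*-KO. Every *Ltf*-KO library lay above every WT library. The difference was small, with a log2 fold change of 0.088 (0.0040 to 0.17), an unadjusted p of 0.0425 and an adjusted p of 0.999 by limma.

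*Man1a2* (ENSMUSG00000008763), a Golgi mannosidase that trims the chain further, was at 16.6, 16.6 and 17.5 TPM in WT and 14.8, 15.2 and 15.2 TPM in *Ltf*-KO. All *Ltf*-KO libraries lay below all WT libraries. Its log2 fold change was -0.16 (-0.28 to -0.037), with an unadjusted p of 0.0179 and an adjusted p of 0.999 by limma. Of the 18 members of this role 10 had a positive log2 fold change (55.6%, beside 55.7% of all tested genes) and 8 a negative one. The median of the role was 0.0037. With median-of-ratios scaling the median was -0.0067.

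Folded cargo leaves in vesicles with a COPII coat, which the small GTPase Sar1 starts on the ER membrane. The 12 members included 1 that lay below the limit for testing, *Sec31b* at 0.14 to 0.85 TPM. *Sec13*, a protein of the outer coat, was at 148, 147 and 146 TPM in WT and 141, 152 and 145 TPM in *Ltf*-KO, and *Preb*, the exchange factor that loads Sar1 with GTP, was at 119, 133 and 123 TPM in WT and 131, 125 and 108 TPM in *Ltf*-KO. For both the genotypes overlapped, and *Preb* was lowest in *Ltf*-KO replicate 3. The median of the coat genes was -0.011, and it was 0.0049 without *Ltf*-KO replicate 3. Of the 11 tested, 5 were above 0 (45.5%, beside 55.7% of all tested genes) and 0 had an unadjusted p under 0.05 (beside 3.78%).

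**Figure D3:**
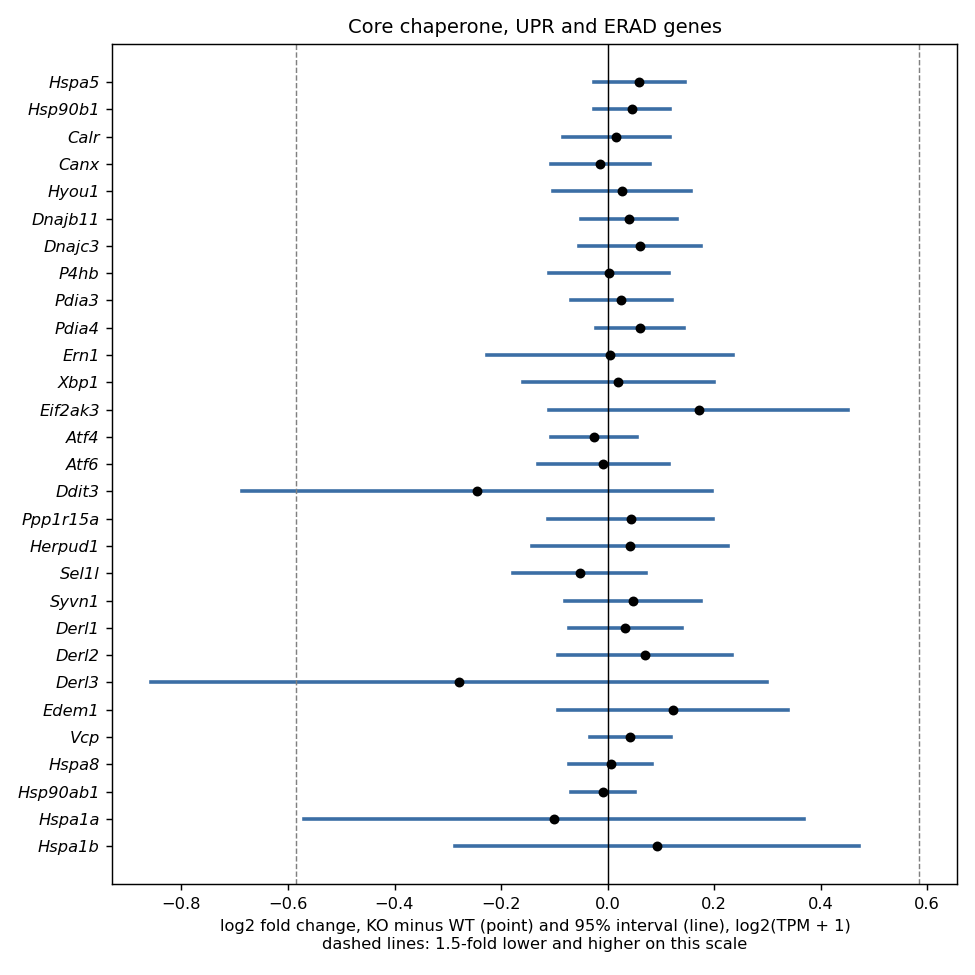
The points are log2 fold changes (*Ltf*-KO minus WT, log2(TPM + 1)) of 29 core genes of chaperone function, the UPR and ERAD, and the lines are 95% intervals from limma with 3 libraries per genotype. All intervals include 0, and those of *Ddit3* and *Derl3* pass the dashed line of 1.5-fold lower on that scale.

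The UPR genes were mostly of moderate level, with a median of 26.0 TPM over 24 members. *Ern1*, which encodes IRE1, was at 9.17 to 11.5 TPM, *Eif2ak3*, which encodes PERK, was at 7.35, 6.68 and 7.25 TPM in WT and 7.94, 9.64 and 6.94 TPM in *Ltf*-KO, and *Atf6* was at 25.6 to 27.7 TPM. For *Eif2ak3* the value in *Ltf*-KO replicate 2 stood above the rest and the genotypes overlapped, with a log2 fold change of 0.17 (-0.11 to 0.45). It was 0.059 without *Ltf*-KO replicate 2 and 0.27 without *Ltf*-KO replicate 3, the only alternative in which it passed the unadjusted threshold. *Atf4*, the transcription factor whose translation rises when PERK acts, was the most abundant UPR gene, at 260.1, 254 and 261 TPM in WT and 256, 259.6 and 246 TPM in *Ltf*-KO. *Xbp1*, the target of IRE1 splicing, was at 64.0, 59.1 and 52.4 TPM in WT and 58.1, 60.9 and 58.5 TPM in *Ltf*-KO. These values count all *Xbp1* transcripts of the gene, and the spliced form was not analysed here. Both overlapped, with log2 fold changes of -0.026 (-0.11 to 0.055) for *Atf4* and 0.020 (-0.16 to 0.20) for *Xbp1*, and the sign of *Xbp1* turned without WT replicate 3. *Atf4* was at -0.0030 without *Ltf*-KO replicate 3 and -0.042 without *Ltf*-KO replicate 2.

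*Ddit3*, which encodes CHOP, a factor linked to cell death under lasting ER stress, was at 20.2, 18.2 and 20.5 TPM in WT and 20.0, 18.5 and 11.8 TPM in *Ltf*-KO. The value in *Ltf*-KO replicate 3 was the lowest and the other 5 lay between 18.2 and 20.5 TPM, so the log2 fold change of -0.24 (-0.69 to 0.20) came from 1 library. It was -0.025 without it and -0.38 without *Ltf*-KO replicate 1. *Ltf*-KO replicate 3 also had the highest *Myog*, and the part of differentiation in the low value was not tested. *Ppp1r15a*, which restores translation by bringing a phosphatase to eIF2α, was at 44.8 to 51.3 TPM. *Capn2*, a calcium-dependent protease, was at 160.2 to 166 TPM, the second highest level of the role. *Mbtps2* (ENSMUSG00000046873), the protease that completes the release of ATF6 in the Golgi, was at 19.0, 18.5 and 18.9 TPM in WT and 16.2, 17.7 and 17.1 TPM in *Ltf*-KO. All *Ltf*-KO libraries lay below all WT libraries. Its log2 fold change was -0.14 (-0.27 to -0.010), with an unadjusted p of 0.038 and an adjusted p of 0.999 by limma. Of the 24 UPR members 1, *Mbtps2*, was under an unadjusted p of 0.05, beside 3.78% of all tested genes. The median log2 fold change of the 24 was 0.012. In the reference annotation an exon of *Mbtps2* overlaps *Yy2* on the same strand, and exons of *Ddit3* overlap *Mars* on the other strand, so that part of their reads may come from these genes.

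The membrane machinery of ERAD recognises misfolded proteins, moves them out and tags them. It comprised 23 members, of which *Sel1l2* was listed at 0 throughout. *Bcap31*, a sorting receptor of the ER membrane, was the most abundant, at 185, 194 and 196 TPM in WT and 189, 193 and 183 TPM in *Ltf*-KO. *Ube2j2*, an ER-anchored ubiquitin-conjugating enzyme, was at 95.3, 72.6 and 74.5 TPM in WT and 96.0, 94.1 and 70.3 TPM in *Ltf*-KO. WT replicate 1 and *Ltf*-KO replicates 1 and 2 lay near 95 TPM and the other libraries between 70.3 and 74.5 TPM, a split that crosses the genotypes. The ligase *Syvn1* (HRD1) was at 26.8 to 29.6 TPM and its partner *Sel1l* at 25.5 to 28.3 TPM. *Herpud1*, which joins this complex, was at 37.8 to 45.6 TPM, and *Edem1*, which hands over trimmed glycoproteins, was at 12.8 to 16.1 TPM.

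The derlins, which thin the membrane for the exit of substrates, differed in level. *Derl1* was at 33.3 to 35.6 TPM, *Derl2* at 21.7 to 25.6 TPM and *Derl3* at 1.97, 2.77 and 1.04 TPM in WT and 1.14, 1.45 and 1.44 TPM in *Ltf*-KO. *Derl1* was between 12.1 and 32.0 times as abundant as *Derl3*. The range came from *Derl3*, whose highest values were in WT replicates 1 and 2, and its log2 fold change of -0.28 had a wide interval (-0.86 to 0.30). It was -0.52 without WT replicate 3, where it passed the unadjusted threshold, and -0.074 without WT replicate 2. The median of the 22 tested ERAD members was 0.023, and 0 had an unadjusted p under 0.05, beside 3.78% of all tested genes. Without WT replicate 1 the median was -0.0018.

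In the cytosol the ATPase VCP pulls substrates out of the membrane. *Vcp* was at 339, 343 and 326 TPM in WT and 341, 348 and 349 TPM in *Ltf*-KO, and its log2 fold change was 0.043 (-0.033 to 0.12), with overlap, and 0.022 without WT replicate 3. *Ube2d3*, a ubiquitin-conjugating enzyme with many partners, was at 339, 319.6 and 329 TPM in WT and 331, 341 and 343 TPM in *Ltf*-KO, also with overlap. *Atxn3* (ENSMUSG00000021189), a deubiquitinase that binds VCP, was at 9.05, 8.85 and 8.12 TPM in WT and 9.78, 9.62 and 10.3 TPM in *Ltf*-KO. All *Ltf*-KO libraries lay above all WT libraries. Its log2 fold change was 0.17 (0.011 to 0.34), with an unadjusted p of 0.0402 and an adjusted p of 0.999 by limma. Of 24 tested members of this role 16 had a positive log2 fold change (66.7%, beside 55.7% of all tested genes), with a median of 0.025.

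*Dnajc1* (ENSMUSG00000026740), a J protein of the ER membrane whose J domain calls on BiP while its other end faces ribosomes, had the lowest p of all members. It was at 14.0, 10.9 and 12.4 TPM in WT and 16.1, 15.6 and 16.6 TPM in *Ltf*-KO. All *Ltf*-KO libraries lay above all WT libraries, and the WT libraries spread more widely. The log2 fold change was 0.35 (0.13 to 0.58), the highest of the members, with an unadjusted p of 0.00726 and an adjusted p of 0.999 by limma. *Dnajc1* was the 1 member with an unadjusted p under 0.05 in each of the 13 alternative fits. Its exons overlap those of *Mllt10* on the other strand, and since no source states that strand was used in counting, reads of the pair may not have been told apart.

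**Figure D4:**
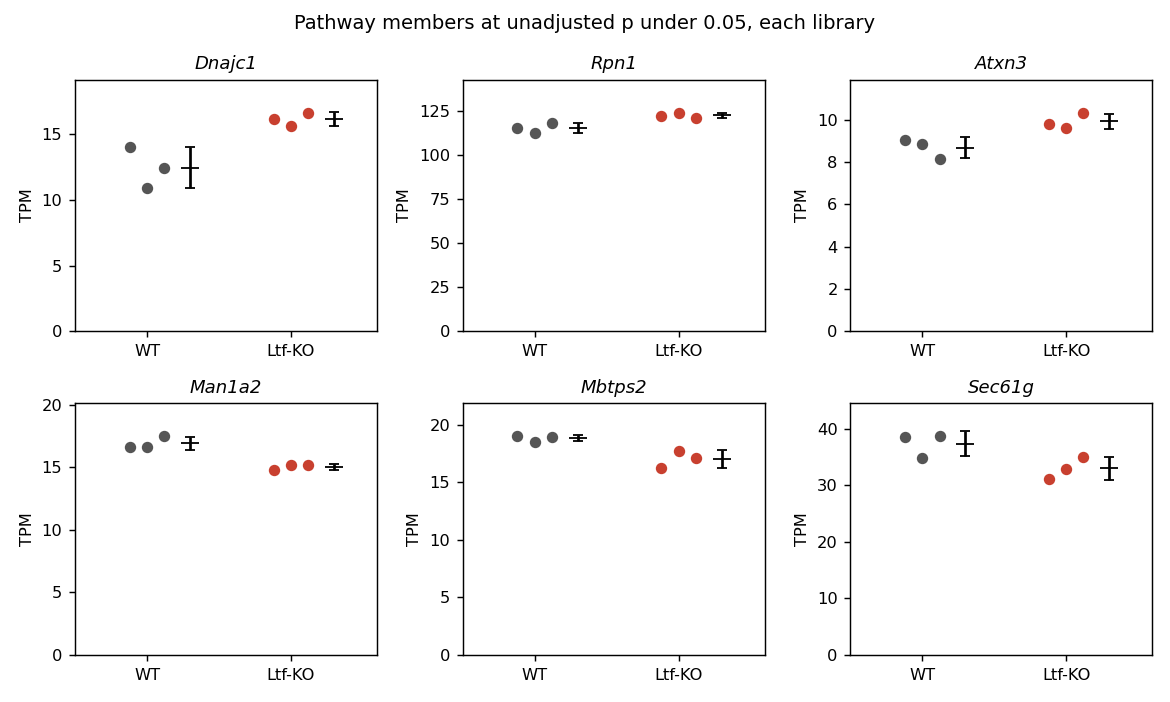
TPM of the 6 members at an unadjusted p under 0.05 in each library, with WT in grey and *Ltf*-KO in red, axes starting at 0, and the mean ± SD of 3 libraries in black. *Dnajc1*, *Rpn1* and *Atxn3* were higher and *Man1a2*, *Mbtps2* and *Sec61g* lower in *Ltf*-KO, and the genotypes overlap for *Sec61g*.

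The cytosolic chaperones of the pathway carry 35.2% of its summed level. *Hsp90ab1*, the constitutive HSP90 of the cytosol, was at 2283, 2277 and 2282 TPM in WT and 2219, 2313 and 2273 TPM in *Ltf*-KO. *Hspa8*, the constitutive HSP70, was at 1986, 2034 and 2046 TPM in WT and 1993, 1987 and 2113 TPM in *Ltf*-KO. These were the most abundant members in every library, and their log2 fold changes were -0.0081 (-0.068 to 0.052) and 0.0060 (-0.072 to 0.084). The sign of *Hsp90ab1* turned with quantile normalization and that of *Hspa8* with median-of-ratios scaling, so no direction can be given for either. *Hspa8* was between 5.12 and 5.78 times as abundant as *Hspa5*, its counterpart in the ER. The inducible HSP70 genes were far lower, *Hspa1b* at 15.3, 12.9 and 16.5 TPM in WT and 15.4, 19.8 and 13.0 TPM in *Ltf*-KO and *Hspa1a* at 5.22, 3.95 and 5.97 TPM in WT and 4.09, 6.15 and 3.78 TPM in *Ltf*-KO. *Hspa1a* and *Hspa1b* are near-identical copies, and the division of reads between them is uncertain. Of the 21 members of this role 3 were listed at 0 in every library, *Cryaa*, *Dnajc5b* and *Dnajc5g*. An unadjusted p under 0.05 was seen for 0 of the 18 tested, beside 3.78% of all tested genes.

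3 members had no role assigned to them. *Gm49320* was at 2.25, 1.49 and 2.11 TPM in WT and 1.23, 1.55 and 1.29 TPM in *Ltf*-KO, with overlap. The reference annotation gives its exons as overlapping those of *Map2k7*, a member, on the same strand, so its reads cannot be told apart from those of *Map2k7* with certainty. *Tram1l1* stayed below 1 TPM and *Gm15266* was listed at 0.

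Related genes that the table does not place in the pathway were followed for comparison. Of 33 UPR targets, 25 had a positive log2 fold change (75.8%, beside 55.7% of all tested genes), and 1 had an unadjusted p under 0.05, beside 3.78% of all tested genes. Their median was 0.031 with all libraries and -0.016 without *Ltf*-KO replicate 2. *Manf*, a stress-induced protein of the ER lumen, was the most abundant at 339, 336 and 336 TPM in WT and 338, 366 and 319 TPM in *Ltf*-KO. *Nupr1*, a small chromatin protein induced downstream of ATF4, was at 9.78, 8.56 and 8.32 TPM in WT and 6.45, 7.84 and 6.90 TPM in *Ltf*-KO, with all *Ltf*-KO libraries below all WT libraries. Its log2 fold change was -0.29 (-0.53 to -0.064), with an unadjusted p of 0.0198 and an adjusted p of 0.999 by limma, and it passed the unadjusted threshold in 8 of 12 alternatives. The 16 chaperones and modifying enzymes of collagen, a main client of the ER, had a median of 0.044 and 0 genes under that threshold. *Serpinh1*, the collagen chaperone HSP47, led them at 570.4, 576 and 566 TPM in WT and 580.4, 598 and 587 TPM in *Ltf*-KO, with every *Ltf*-KO library above every WT library.

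Among the 16 genes of ER-phagy and of UFMylation, the attachment of the small protein UFM1 to ribosomes at the ER, the most abundant was *Ufc1*, the conjugating enzyme, at 77.6 to 88.3 TPM. *Ufsp2*, a protease that matures and removes UFM1, was at 33.3, 33.5 and 32.3 TPM in WT and 36.0, 34.7 and 40.3 TPM in *Ltf*-KO, without overlap. Its log2 fold change was 0.16 (0.0050 to 0.31), with an unadjusted p of 0.0447 and an adjusted p of 0.999 by limma. It passed the unadjusted threshold in 4 of 13 alternatives and was 0.096 without *Ltf*-KO replicate 3. The median of this list was 0.018. The 11 genes of retrieval from the Golgi, led by the coat subunit *Copa* at 118 to 125 TPM, had a median of -0.0041. Under the threshold were 0 of them, beside 3.78% of all tested genes.

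Libraries of the same genotype also differed in these genes. *Ltf*-KO replicate 2 had the highest value for 40 of the 148 tested members (27.0%), beside 21.3% of all tested genes, and *Ltf*-KO replicate 3 had the lowest value for 43 (29.1%), beside 18.7%. The median deviation of the members from their 6-library mean was -0.011, -0.0078 and 0.0015 in WT and 0.0050, 0.031 and -0.016 in *Ltf*-KO on the log2(TPM + 1) scale. The median of *Ltf*-KO replicate 2 was above 0 for all 9 roles. The disulfide enzymes differed most between libraries, from -0.069 in *Ltf*-KO replicate 3 to 0.056 in *Ltf*-KO replicate 2. *Ltf*-KO replicate 3 had the highest and *Ltf*-KO replicate 2 the lowest sum of differentiation markers, and the part of differentiation in this spread was not tested. Without *Ltf*-KO replicate 2 the median log2 fold change of the members was 0.0032.

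**Figure D5:**
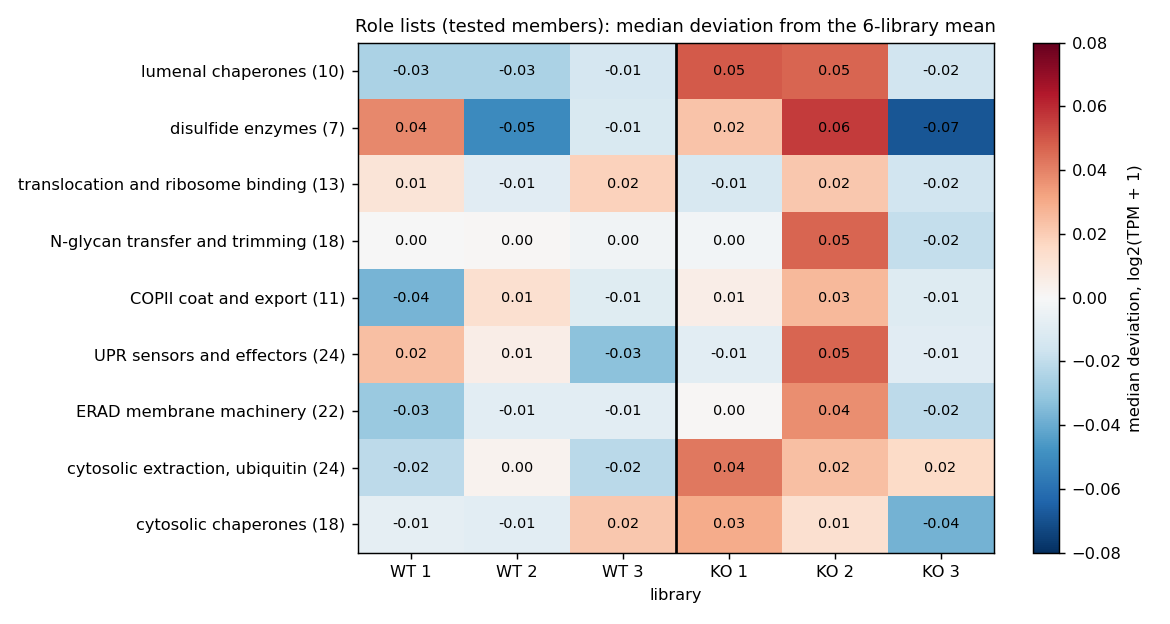
Each cell is the median deviation of the tested members of a role from their mean over the 6 libraries, on the log2(TPM + 1) scale, in 1 library (number of tested members in brackets). Blue is below and red above the mean, and *Ltf*-KO replicate 2 is above 0 for all 9 roles.

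Among the 130 members that averaged 10 TPM or more, the highest library was more than 1.5 times the lowest for 6 (4.62%), beside 6.94% of all such genes. The members share annotations, which follow from their choice by pathway and are not a finding about these cells. In the terms the table lists, 99 of 158 (62.7%) had a cellular component that names the ER, beside 5.69% of all genes with terms, and 20 (12.7%) were placed in the ER lumen, beside 0.323%. The cytosol was listed for 57 (36.1%, beside 15.1%). Of the 153 members with a protein domain in the table, 13 had a J domain (8.50%, beside 0.242%), 9 an HSP70 domain (5.88%, beside 0.0712%) and 7 the mannosidase domain of family 47, which the table gives to 7 genes in all.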

How the data were processed

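RNA of cultured SCs from WT and *Ltf*-KO mice, 3 libraries each, was sequenced, and the authors deposited TPM values with 2 decimals. That the unit is TPM was taken from the values, which sum to nearly the same total in each library. The submitters' processing notes name GRCm39. The aligner and counting tool are not given in the sources used here. TPM keeps no depth, so precision was judged from the spread between libraries. The values were compared as log2(TPM + 1) with limma 3.58.1 in R 4.3.3 (lmFit, eBayes with a variance trend, two-sided, genotype only), for genes that averaged 1 TPM or more. Benjamini-Hochberg adjustment covered all tested genes, with a threshold of 0.05. The fit was tested on simulated data.

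The members and gene lists were chosen with earlier results of these data known. Genes named are a core set of chaperone, UPR and ERAD genes, the 2 most abundant tested members of each role, members at an unadjusted p under 0.05, for lists outside the pathway the most abundant gene and genes at an unadjusted p under 0.05, and *Ltf*. Others are cell markers, genes with a motif or at 0, or were chosen after their values were seen. Promoter sequences are from RefSeq (GRCm38.p6, 133 of 158 members matched), and exon overlaps from GENCODE M21 on GRCm38. Alternatives were a pseudocount of 0.1, no filter, a filter at 10 TPM, the replicate number as a block, quantile normalization, median-of-ratios scaling, no variance trend and leaving out each library.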

Additional observations from a re-analysis of the deposited data

How the results depend on the processing

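No member passed an adjusted p of 0.05 by limma in any of the 13 alternatives. Over all tested genes the count at that threshold was 0 in the alternatives with all libraries and 0 to 6 with 1 library left out. At an unadjusted p under 0.05, the tested genes numbered 890.0 with no filter and 281 with a filter at 10 TPM, where more and fewer genes were tested, against 490.0. With the replicate number as a block the members at this threshold fell from 6 to 1, and all tested genes from 490.0 to 380.0 (replicate block). Same-numbered libraries did not deviate together (correlations -0.041, -0.058 and -0.088). The sources do not state whether the numbers pair the libraries, and these correlations cannot settle it. With 1 library left out the members at this threshold numbered 3 to 8. Medians of lists with 1 library left out ranged from -0.0018 to 0.034 for the ERAD membrane machinery, -0.010 to 0.031 for N-glycan transfer, -0.021 to 0.030 for the UPR, 0.018 to 0.042 for cytosolic extraction, -0.014 to 0.022 for translocation, -0.020 to 0.028 for ER-phagy, -0.012 to 0.063 for the disulfide enzymes, -0.025 to 0.0049 for the COPII coat, -0.0054 to 0.014 for the cytosolic chaperones, -0.016 to 0.049 for the UPR targets and -0.028 to 0.019 for retrieval. Of these only cytosolic extraction kept its sign. The lumenal chaperones (0.030 to 0.059) and the collagen list (0.024 to 0.054) kept theirs too. Quantile normalization turned the medians of the UPR (-0.0021) and retrieval (0.00080). Median-of-ratios scaling turned those of N-glycan transfer (-0.0067), translocation (-0.0045) and the disulfide enzymes (-0.00062). Signs turned for *Xbp1* (-0.056 without WT replicate 3, -0.00047 without *Ltf*-KO replicate 2, -0.056 to 0.086 over the fits with 1 library left out), *Hsp90ab1* (0.018 with quantile normalization, 0.0077 without *Ltf*-KO replicate 1, -0.022 to 0.0077 over those fits), *Hspa8* (-0.0044 with median-of-ratios scaling, -0.0069 without WT replicate 1, -0.023 without *Ltf*-KO replicate 3, -0.023 to 0.021 over those fits, 0.027 with quantile normalization) and *Calr* (-0.023 without *Ltf*-KO replicate 2, -0.023 to 0.051 over those fits). The cause was not tested. The other 16 of the 20 genes followed through the alternatives kept their sign. Precision below 10 TPM is limited, and depth is unknown.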
